A study of Mus musculus with 8 samples.

Results

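The transcripts of 7 genes were followed in sorted B1a B cells from mouse bone marrow: the PIM kinase genes Pim1, Pim2 and Pim3, and the cytokine feedback genes Socs1, Socs2, Socs3 and Cish. They were taken by symbol, as the PIM family and the CIS/SOCS inhibitors induced through STAT factors, and all 7 were found among the 24746 genes of the count table and passed the filter on low counts. RNA sequencing was done on 8 mice aged 10 to 12 weeks, all carrying Vav-Cre, a transgene that produces Cre recombinase in blood-forming cells. The 4 controls had the genotype miR-15a/b+/+ Vav-Cre. The 4 mice called miR-15 dKO, shortened to dKO here, were miR-15a/bfl/fl Vav-Cre, with loxP sites at both miR-15/16 microRNA clusters. Because Vav-Cre acts in all blood lineages, any T, NK or myeloid cells left after the sort carried the same alleles. The sample labels name the cells B1a B cells, whereas the series text speaks of pro-B cells.

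PIM kinases are serine/threonine kinases that promote survival, protein synthesis and cell cycle entry. They are active as soon as they are made, so their output follows transcript and protein amount. Cytokine receptors such as the IL-7 and IL-5 receptors activate JAK kinases, which phosphorylate STAT factors. STAT5 then induces PIM genes and, at the same time, the genes of the CIS and SOCS proteins, which bind receptors or JAK kinases and shut the signal down. In B lineage cells PIM1 and PIM2 are known as survival kinases downstream of IL-7 and BAFF. The series title ties the miR-15/16 clusters to IL-7 receptor expression, so these outputs are the question addressed here.

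The microRNAs of both clusters share a seed (bases 2 to 8, in capitals), through which they pair with transcripts. Their mature sequences, from RefSeq on GRCm38.p6, are shown because the floxed clusters encode them. On that build miR-15a-5p lies at chr14:61632075-61632096 (minus strand) and miR-15b-5p at chr3:69009775-69009796 (plus strand), and miR-16-5p is encoded in both clusters.
mmu-miR-15a-5p: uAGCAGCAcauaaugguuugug
mmu-miR-15b-5p: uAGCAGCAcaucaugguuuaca
mmu-miR-16-5p: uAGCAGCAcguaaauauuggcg

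Matches to the seed were looked for in the longest annotated 3′ UTR of each member (GENCODE M21, GRCm38). The letters searched, on the transcript strand, were TGCTGCT, which pairs with bases 2 to 8, and GCTGCTA, which pairs with bases 2 to 7 and has an A opposite base 1. The 2 overlap where an 8-base match TGCTGCTA occurs. Pim1 and Socs1 held 2 matches each and Pim3 held 1, all of the TGCTGCT kind. No match lay in the windows of Pim2, Socs2, Socs3 and Cish, and none of the 7 genes held the 8-base match. Each match is shown in capitals within its surrounding 30 bases, with positions counted from the first base of the 3′ UTR.
Pim1 3′ UTR bases 10 to 16: cagcctttcTGCTGCTgtctgtcagaccct
Pim1 3′ UTR bases 472 to 478: tacctcttaccTGCTGCTtctcaaactctg
Pim3 3′ UTR bases 265 to 271: gatcccgacccTGCTGCTccatctcaggag
Socs1 3′ UTR bases 1042 to 1048: aggggcctgggTGCTGCTggtggcttgggc
Socs1 3′ UTR bases 1456 to 1462: ggttctccccaTGCTGCTtttcagtctagc

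At least 1 such match was held by 28.05% of the 10676 tested genes with an annotated 3′ UTR, at least 2 by 9.10%, and the 8-base match by 4.49%. Pim1 rose in the dKO libraries and Socs1 was not called, and any part of the matches in their levels was not tested. The matches describe the letters of these windows, and pairing in the cells was not measured.

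The libraries held 25565090 to 34954230 counts each. B cell markers were strong in every library, with the summed level of 6 markers between 21820 and 25860 CPM (counts scaled to the TMM-adjusted library total). The 12 B-1a markers on the list were all present, whereas 1 of 9 pro-B markers had no count in any library and only 2 passed the filter. The table lists all 4 microRNA precursor genes with 0 counts throughout, in controls too, so they say nothing of the deletion. Dleu2, which hosts miR-15a and miR-16-1, rose in the dKO libraries, from 17.96 ± 5.95 to 90.3 ± 16.3 CPM (n = 4 each, SD, edgeR adjusted p = 0.0065). Smc4, examined for the other cluster, was at 126.6 ± 39.2 CPM in control and 134.2 ± 24.2 CPM in dKO libraries (same test, adjusted p = 0.94). Control 2 and control 4 stood apart in markers of follicular B-2 cells, the conventional recirculating B cells, whose mean log2 CPM was 6.72 and 6.92 there and 4.73 to 5.41 in the other 6 libraries. Member results that rest on these libraries are therefore given with and without them. For some other genes only the range over the alternative fits is given. In bulk RNA of this kind, fewer cells of a type and less RNA per cell cannot be told apart.

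Pim1 rose in the dKO libraries and was the only 1 of the 7 members past the threshold, while Socs2 lay lower in the dKO libraries without passing it. The 4 members Pim3, Socs1, Socs3 and Cish had 95% intervals of the log2 fold change that spanned 0, and Pim2 lay slightly higher. Over all genes tested, 0.088% were called, which means a Benjamini-Hochberg adjusted p below 0.05 in edgeR's quasi-likelihood test of 11363 genes, and in 6.96% the values of the genotypes did not overlap. Among the members 1 of 7 was called and Pim1 was also the only 1 without overlap. The median log2 fold change of the 7 members was 0.13, against −0.02 over all genes tested.

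Pim1 encodes a constitutively active kinase and is a classical STAT5 target gene. Its level was 16.3, 16.4, 30.15 and 18.1 CPM in controls 1 to 4. In dKO 1 to dKO 4 it was 62.6, 55.4, 72.1 and 68.7 CPM. All dKO libraries lay above all controls, and the lowest dKO library was still well above control 3, the highest control. The fold change was 3.20 (log2 fold change 1.68 ± 0.21 SE, 95% interval 1.22 to 2.14, edgeR adjusted p = 0.011), and by p the gene was the 5th of all genes tested. Leaving out a single library kept the log2 fold change between 1.59 and 1.93. The adjusted p went past 0.05 without control 4 (0.059), dKO 3 (0.065) or dKO 4 (0.052). Without both control 2 and control 4 the gene was called with a log2 fold change of 1.48 (adjusted p = 0.029), where 0.499% of genes were called. Pim1 shares 488 of its 3362 annotated exon bases with Gm26885 on the opposite strand. Whether reads were counted by strand is not known here.

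The 12 B-1a markers, Il5ra among them, all had log2 fold changes above 0 (median 0.76), and 1 of them, the inhibitory receptor gene Ctla4, was called higher (edgeR adjusted p = 0.045). Their summed level was 724 to 1864 CPM in control and 1832 to 2322 CPM in dKO libraries, with overlapping ranges. Their mean log2 CPM did not overlap, at 4.623 to 5.564 in control and 5.865 to 6.047 in dKO libraries. Control 1 had the highest B-1a sum of the controls (1864 CPM), above dKO 1 (1832 CPM). By mean log2 CPM control 1 (5.564) lay below dKO 1 (5.865). Among the 13 T cell markers measured, 11 were positive with a median of 0.28 and none was called, and their sums overlapped, at 117.6 to 310.3 CPM in control and 179.4 to 331.3 CPM in dKO libraries. Cd3e, which defines T cells, was at 8.601 ± 4.44 CPM in control and 9.39 ± 3.40 CPM in dKO libraries (n = 4 each, SD), so T cell RNA was present in both genotypes. Myeloid markers summed to 760.6 to 5338 CPM in control and 587.5 to 2327 CPM in dKO libraries, and NK cell markers to 17.45 to 179.7 and 66.1 to 181.8 CPM. The part of these cell types in the Pim1 difference was not tested.

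**Figure D1:**
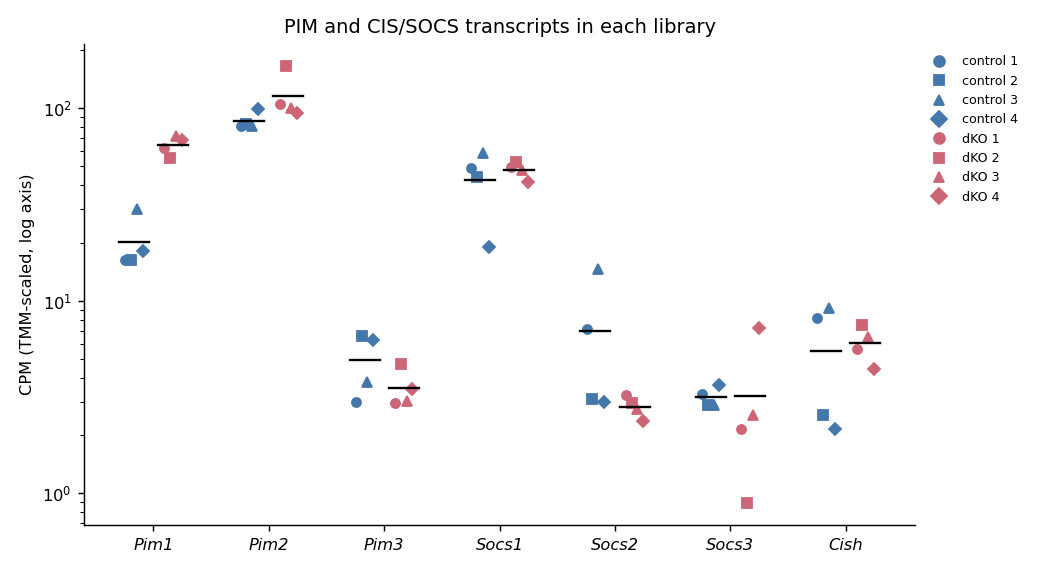
Level of each PIM and CIS/SOCS gene (CPM, log axis) in the 4 control and 4 dKO libraries, with the horizontal bar at the group mean. Pim1 lies between 16.3 and 30.15 CPM in the controls and between 55.4 and 72.1 CPM in the dKO libraries, while the groups overlap for the other members.

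Pim2, the X-linked member of the family, was at 80.6, 82.5, 80.7 and 99.2 CPM in controls 1 to 4. It stood at 105.4, 166.4, 100.4 and 94.2 CPM in dKO 1 to dKO 4. Control 4 lay above dKO 4, so the groups overlapped, and dKO 2 was far above the other dKO libraries. The log2 fold change of 0.44 ± 0.19 (SE, 95% interval 0.03 to 0.86) did not pass over all genes (edgeR adjusted p = 0.42). Without dKO 2 it was 0.22 (adjusted p = 0.82). With sex as a term it was 0.50 (adjusted p = 0.33). Y-linked genes were at 116.2 to 137.8 CPM in control 1, dKO 3 and dKO 4 and at 0 in the other libraries. The sexes were thus not balanced between the genotypes.

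Pim3, the least abundant PIM gene, was at 2.99, 6.60, 3.80 and 6.28 CPM in controls 1 to 4 and at 2.96, 4.68, 3.02 and 3.47 CPM in dKO 1 to dKO 4. Controls 2 and 4 were the highest libraries, and controls 1 and 3 lay among the dKO libraries. The log2 fold change was −0.48 ± 0.31 (SE, 95% interval −1.16 to 0.21, adjusted p = 0.65). Without control 2 and control 4 it was 0.06 (adjusted p = 0.96).

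Per kilobase of its longest protein-coding transcript, Pim2 had the highest PIM level in both genotypes, at 41.9 ± 4.41 CPM per kb in the controls and 57.0 ± 16.4 in the dKO libraries (n = 4 each, SD). Pim1 followed with 7.50 ± 2.47 in the controls and 23.98 ± 2.73 CPM per kb in the dKO libraries, and Pim3 with 2.03 ± 0.74 and 1.46 ± 0.33. Pim1 thus made up 14.6% ± 4.59 of the PIM level per length in the controls and 29.97% ± 7.09 in the dKO libraries (n = 4 each, SD). The share was lowest among the dKO libraries in dKO 2 (19.8%), the library with the highest Pim2, and overlapped with control 3 (21.4%). The summed PIM level per length was 46.7, 49.2, 52.2 and 57.8 CPM per kb in controls 1 to 4 and 76.0, 103.8, 77.1 and 72.9 in dKO 1 to dKO 4, without overlap.

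Whether the PIM genes differed from each other in their response was asked through the ratio of their counts within each library, where scaling cancels. The log2 ratio of Pim1 to Pim2 was −2.13 ± 0.48 in the controls and −0.82 ± 0.53 in the dKO libraries (n = 4 each, SD), a difference of 1.31 (exact two-sided permutation test, p = 0.057, adjusted p = 0.10 over 9 ratios). For Pim1 to Pim3 the difference was 2.13 and for Pim2 to Pim3 it was 0.83, each without overlap and with p = 0.029, the smallest that 4 against 4 libraries can give (exact permutation test, adjusted p = 0.064). None of the 9 ratios passed after adjustment. A ratio at the smallest p could pass only if most of the 9 shared it. With so few libraries this outcome was thus nearly fixed in advance. Without control 2 and control 4, the 2 libraries with most Pim3, the Pim1 to Pim3 and Pim2 to Pim3 differences were 1.49 and 0.45.

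**Figure D2:**
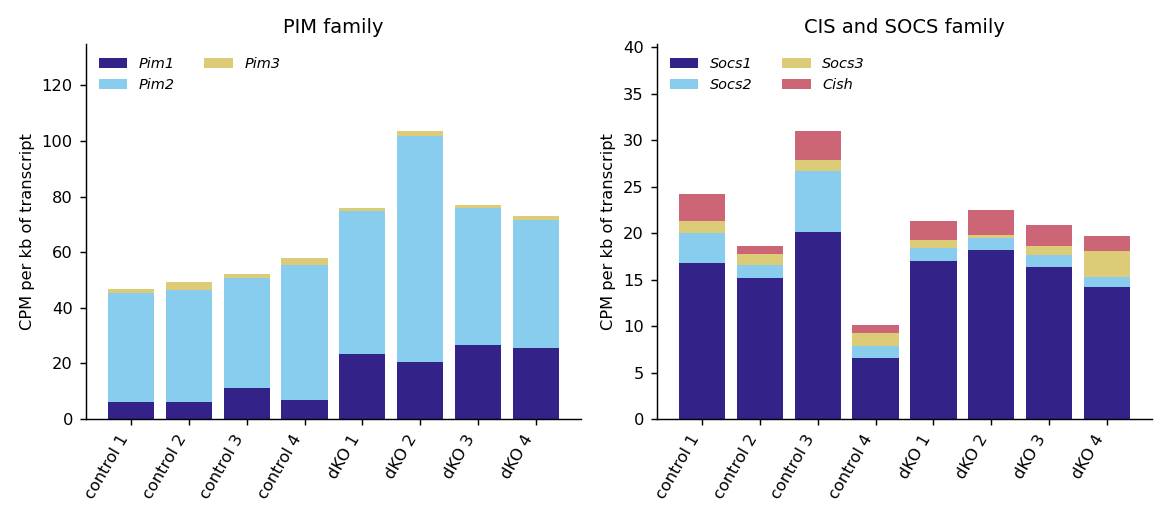
Level per length (CPM per kb of the longest protein-coding transcript) of the PIM genes (left) and the CIS and SOCS genes (right), stacked for each library. The PIM sum is 46.7 to 57.8 in the controls and 72.9 to 103.8 in the dKO libraries, with Pim2 the larger part throughout, and the CIS and SOCS sum is mostly Socs1 and lowest in control 4 (10.1).

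Among the feedback genes Socs1 was by far the most abundant. SOCS1 binds JAK kinases directly and restrains IL-7 and interferon signals in lymphocytes. Its transcript was at 48.8, 44.2, 58.6 and 19 CPM in controls 1 to 4 and at 49.4, 52.8, 47.6 and 41.3 CPM in dKO 1 to dKO 4. Control 4 was the low library, and the other 7 lay close together. The log2 fold change was 0.16 ± 0.28 (SE, 95% interval −0.44 to 0.77, adjusted p = 0.90), and −0.08 without control 4.

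Socs2 was the member that lay lowest in the dKO libraries relative to the controls. SOCS2 is best known for limiting growth hormone signalling through STAT5, and its gene is itself induced by STAT5. It was at 7.14, 3.10, 14.6 and 2.99 CPM in controls 1 to 4 and at 3.25, 2.93, 2.75 and 2.38 CPM in dKO 1 to dKO 4. Controls 1 and 3 were high, and controls 2 and 4 were level with the dKO libraries, of which dKO 1 lay above both. The log2 fold change of −1.29 ± 0.47 (SE, 95% interval −2.32 to −0.27) did not pass over all genes (edgeR adjusted p = 0.33), and without control 3 it was −0.64 (adjusted p = 0.54). Without control 2 and control 4, Socs2 was called lower at −1.94 ± 0.31 (SE, adjusted p = 0.023), in a fit with 2 controls. With the follicular B-2 marker score as a term it was called at −1.62 ± 0.27 (SE, adjusted p = 0.038), where 0.255% of genes were called. That score mainly sets control 2 and control 4 apart, so these fits are not independent of each other.

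Cish encodes CIS, which binds phosphorylated cytokine receptors and competes with STAT5. It was at 8.16, 2.56, 9.15 and 2.17 CPM in controls 1 to 4 and at 5.64, 7.54, 6.53 and 4.43 CPM in dKO 1 to dKO 4. As with Socs2, controls 1 and 3 were the high libraries and controls 2 and 4 the low ones, but here the dKO libraries lay between them. The log2 fold change was 0.13 ± 0.44 (SE, 95% interval −0.84 to 1.11, edgeR adjusted p = 0.96) and was −0.52 ± 0.27 (SE, adjusted p = 0.40) without control 2 and control 4. Cish shares 479 of its 6419 annotated exon bases with Gm17041 and 261 with Gm17040, both on the opposite strand.

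Socs3, whose product acts on receptors of the gp130 family, was at 3.28, 2.90, 2.89 and 3.64 CPM in controls 1 to 4. It was at 2.16, 0.89, 2.54 and 7.22 CPM in dKO 1 to dKO 4. The controls were close together, while dKO 2 was the lowest and dKO 4 the highest of all libraries. The log2 fold change was 0.01 ± 0.50 (SE, 95% interval −1.09 to 1.119, edgeR adjusted p = 0.996), and −0.78 without dKO 4 (adjusted p = 0.48). The counts behind these values were 24 to 212 per library.

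**Figure D3:**
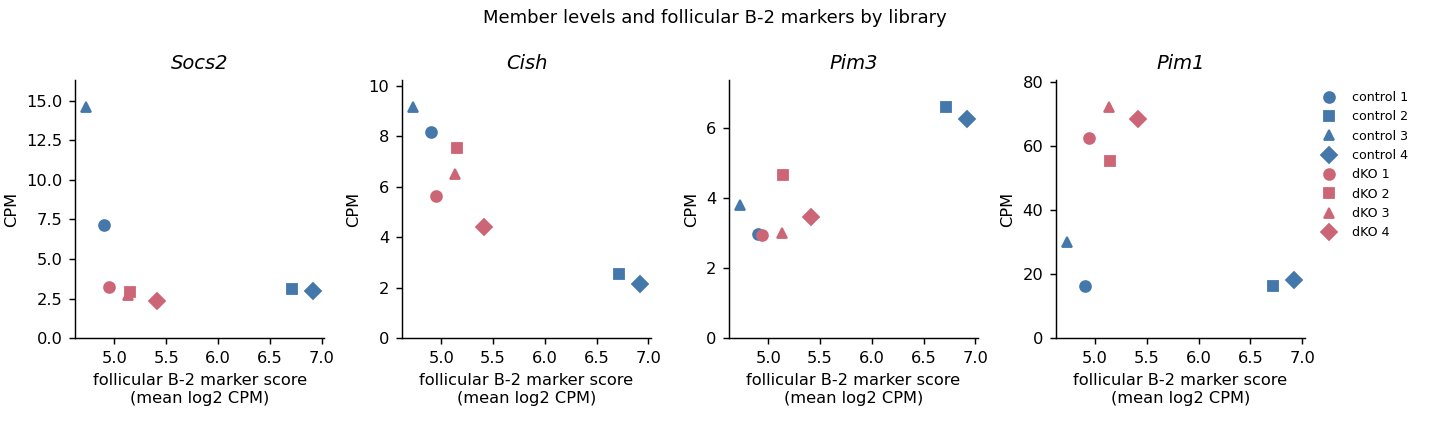
Level of Socs2, Cish, Pim3 and Pim1 (CPM) against the follicular B-2 marker score (mean log2 CPM of 9 markers) for the 8 libraries. Controls 2 and 4, at scores of 6.72 and 6.92, have the lowest Cish and the highest Pim3, while Socs2 in the dKO libraries (2.38 to 3.25 CPM) lies below controls 1 and 3, which have similar scores.

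Relative to each other, the feedback genes differed most in the ratio of Socs2 to Cish. The log2 ratio of Socs2 to Cish counts was 0.30 ± 0.37 in the controls and −1.06 ± 0.27 in the dKO libraries (n = 4 each, SD). All dKO ratios (−1.34 to −0.79) lay below all control ratios (−0.19 to 0.67), a difference of −1.36 (exact two-sided permutation test, p = 0.029, adjusted p = 0.064 over 9 ratios, so not past the threshold). This p too is the smallest possible, so the adjusted p has the limit given for the PIM ratios. The difference was −1.23 to −1.52 with 1 library left out and −1.29 without control 2 and control 4. The ratio of Socs1 to Socs2 differed by 1.25 in the other direction, likewise without overlap (p = 0.029, adjusted p = 0.064, same exact test). The other 4 ratios among the feedback genes had p values of 0.34 to 0.89.

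Per length, Socs1 stood at 14.7 ± 5.80 CPM per kb in the controls and 16.4 ± 1.66 in the dKO libraries (n = 4 each, SD), above the other 3 feedback genes in every library. In the controls Socs2 came next (3.13 ± 2.45), then Cish (1.93 ± 1.28) and Socs3 (1.24 ± 0.14), and the spreads of Socs2 and Cish overlapped. In the dKO libraries Cish (2.12 ± 0.46 CPM per kb) was above Socs2 (1.27 ± 0.16) and Socs3 (1.26 ± 1.09). This order depends on the length used. With all annotated exons as the length, Socs2 was at 0.73 and Cish at 0.86 CPM per kb in the controls, below Socs3 (1.10). In the dKO libraries Socs2 (0.30) and Cish (0.94) were likewise below Socs3 (1.11) by that length.

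**Figure D4:**
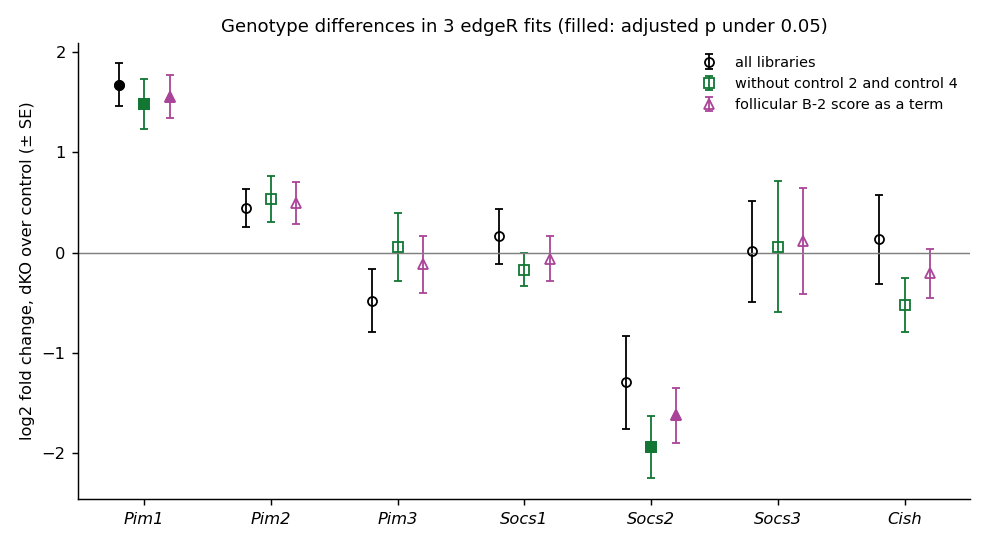
Log2 fold change of each member, dKO over control, with its SE, in edgeR fits of all libraries, of those other than controls 2 and 4, and with follicular B-2 score added. Filled symbols mark an adjusted p under 0.05, which Pim1 reaches in all 3 fits and Socs2 in the last 2.

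Other tools were run on the same counts. DESeq2 called 2.83% of all genes and limma voom with quality weights 2.48%, and each called Pim1 alone among the 7 (adjusted p = 1.4e-09 and 0.0014). Socs2 had a log2 fold change of −1.31 in DESeq2 (adjusted p = 0.13) and −0.74 in limma voom (adjusted p = 0.38).

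STAT factors bind the letters TTCNNNGAA, a palindrome that reads the same on both strands, and this motif was searched around the RefSeq start site of each gene, from 250 bases before it to 50 after. Promoters of 6 of the 7 members were in the table, with 2 for Pim1 and none for Socs2. Cish held 2 matches, 11 bases apart and beginning at the annotated start site, and Socs3 held 1, beginning 154 bases before it. The windows of Pim1, Pim2, Pim3 and Socs1 held none. Of all 32851 promoters listed, 8.30% held at least 1 match and 0.457% at least 2. The promoters shown are those of Cish, the member with paired matches, and of Pim1, the member that was called. Of the pair of Pim1 promoters the upstream one is shown, and the matches are in capitals.
Cish promoter (GRCm38.p6, chr9:107296409-107296708, plus strand): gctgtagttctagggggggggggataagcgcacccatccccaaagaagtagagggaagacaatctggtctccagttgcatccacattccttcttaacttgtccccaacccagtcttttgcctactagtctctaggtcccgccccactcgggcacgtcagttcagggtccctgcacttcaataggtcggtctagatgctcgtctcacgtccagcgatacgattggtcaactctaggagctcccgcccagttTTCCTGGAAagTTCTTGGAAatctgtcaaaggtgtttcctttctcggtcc
Pim1 promoter (GRCm38.p6, chr17:29490535-29490834, plus strand): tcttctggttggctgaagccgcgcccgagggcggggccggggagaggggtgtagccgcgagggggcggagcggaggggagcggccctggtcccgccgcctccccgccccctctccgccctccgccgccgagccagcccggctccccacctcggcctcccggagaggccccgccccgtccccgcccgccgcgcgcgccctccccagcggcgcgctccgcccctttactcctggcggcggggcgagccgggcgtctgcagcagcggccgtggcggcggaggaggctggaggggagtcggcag

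Cish did not pass the threshold (log2 fold change 0.13) and Pim1 rose, and any part of the motif in their levels was not tested. Matches outside the windows were not searched.

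The wider pathway showed no member called by edgeR in any of the 8 lists examined, which together held 117 tested genes beside the members. Among the other cytokine feedback genes 7 of 18 tested lay higher in the dKO libraries, and the median log2 fold change was −0.10. Socs5, a further SOCS family gene, was at 9.21 ± 2.55 CPM in control and 6.59 ± 1.49 CPM in dKO libraries (n = 4 each, SD, log2 fold change −0.48, adjusted p = 0.53). The tyrosine phosphatase genes Ptpn1, whose product dephosphorylates JAK2 and TYK2, and Ptpn11, which encodes SHP2, had log2 fold changes of 0.34 (adjusted p = 0.42) and 0.45 (adjusted p = 0.36). Usp18, an interferon-induced inhibitor of the type I interferon receptor, was at −1.22 (adjusted p = 0.31). The genes for subunits of SOCS box ubiquitin ligases had a median of −0.003 over 6 genes, none of them called. Their values ran from −0.27 (Rnf7) to 0.14 (Elob), with Eloc at −0.17 and Cul5 at 0.05 (adjusted p of at least 0.63).

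Upstream of the members, 10 of 20 cytokine receptor genes had a positive log2 fold change and the median was 0.01. Il5ra, the IL-5 receptor chain of B-1 cells, was at 24.2 ± 9.01 CPM in control and 79.0 ± 21.6 CPM in dKO libraries (n = 4 each, SD, log2 fold change 1.71, adjusted p = 0.069). Il6st, which encodes gp130, was at 9.24 ± 3.44 and 17.7 ± 1.86 CPM (log2 fold change 0.94, adjusted p = 0.15). Neither overlapped between the genotypes. Il7r had a log2 fold change of 0.79 (adjusted p = 0.40), which ranged from 0.61 to 1.395 over the alternative fits. Ifngr2, an interferon gamma receptor chain, lay lower at −0.34 (adjusted p = 0.42), also without overlap. Of the 20 receptor genes 4 did not overlap, in both directions, against 6.96% of all genes tested.

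Of the 11 JAK and STAT genes 5 were positive, with a median of −0.10. Stat5a and Stat5b, the factors that induce most members, were at 5.07 ± 2.72 and 11.01 ± 2.35 CPM in control libraries, and at 5.55 ± 2.96 and 12.3 ± 2.87 CPM in dKO libraries (n = 4 each, SD). They were named after their values were seen. Stat4, which transmits IL-12 signals, lay lower at 26.9 ± 15.6 against 8.37 ± 2.17 CPM (log2 fold change −1.68, adjusted p = 0.12), without overlap. Its log2 fold change ranged from −1.89 to −0.76 over the alternative fits. Jak2 and Tyk2, which encode JAK kinases, each had a log2 fold change of 0.31 (adjusted p = 0.58 and 0.65).

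Among 17 other STAT-induced genes 9 were positive, with a median of 0.01, and the named members lay in both directions. Bcl2, which blocks apoptosis, was at 51.9 ± 6.83 CPM in control and 104.1 ± 37.9 CPM in dKO libraries (n = 4 each, SD, log2 fold change 1.00, adjusted p = 0.13). Il2ra, an IL-2 receptor chain, had a log2 fold change of 0.95 (adjusted p = 0.58). Bcl6 and Fcer2a lay at −1.43 and −2.30 (adjusted p = 0.56 and 0.52), and turned to 0.93 and 0.63 without control 2 and control 4. Fcer2a is also among the follicular B-2 markers that set these libraries apart, so its turn followed from the choice of libraries. Among the 15 tested genes of PIM substrates 7 were positive with a median of −0.002. Nfatc1, a calcium-regulated transcription factor gene, had the smallest p there (log2 fold change 0.58, adjusted p = 0.15). Map3k5 was at 0.45, Myc at 0.32 and Cxcr4 at −1.51 (adjusted p = 0.63, 0.63 and 0.56).

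NF-kB also induces PIM genes in B cells, and 6 of the 15 NF-kB induced genes were positive, with a median of −0.07. Nfkb1 lay at 0.59 (adjusted p = 0.20), Nfkb2 at −0.59 (0.66) and Traf1 at 0.25 (0.65). Bcl2a1a, at −1.15 (adjusted p = 0.37), has near-identical copies and its counts are uncertain. Immediate early and heat shock genes, which respond to cell handling, had 8 of 18 positive and a median of −0.23. Hspa8, a constitutive chaperone gene, was at 637.7 ± 97.3 CPM in control and 323.2 ± 44.3 CPM in dKO libraries (n = 4 each, SD, log2 fold change −0.98, adjusted p = 0.069), without overlap. Dnajb1 was at −0.70, Fos at −1.55 and Fosb at −2.10 (adjusted p = 0.20, 0.61 and 0.51). Over the alternative fits Fos ranged from −2.15 to −0.26 and Fosb from −2.78 to −0.24. The part of handling in the members' values was not tested.

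**Figure D5:**
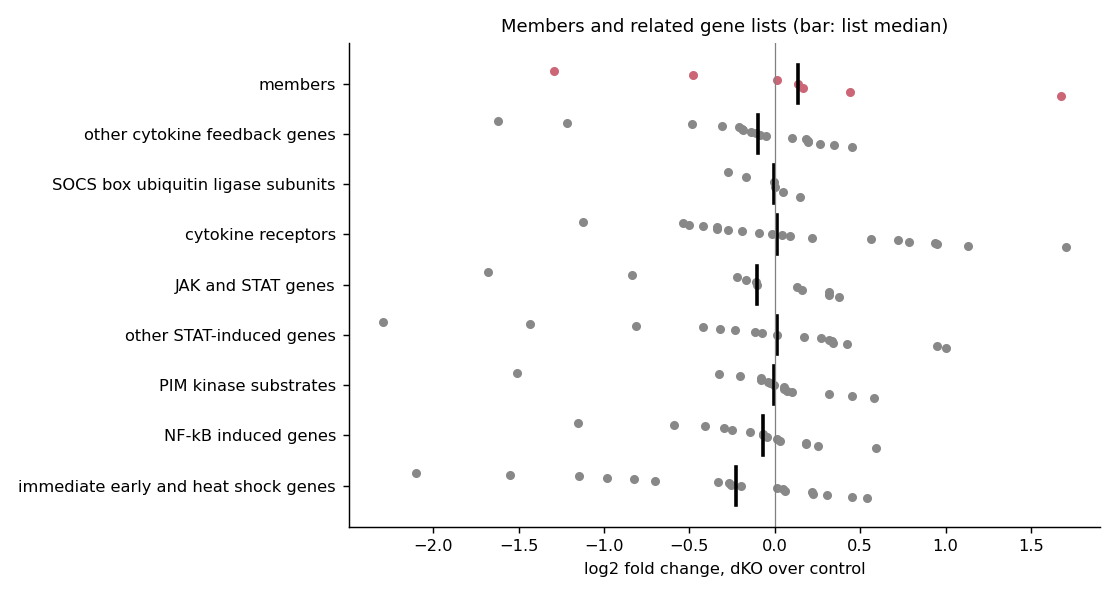
Log2 fold change, dKO over control, of the 7 members (top) and of the tested genes of 8 related lists, each point a gene and each bar the list median. List medians lie between −0.23 and 0.13, and Pim1 (1.68) and Il5ra (1.71) are the points farthest to the right.

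For the 4 members with a mean of at least 5 CPM, the tested genes most alike in pattern over the 8 libraries were picked by the Pearson correlation of log2 CPM among 7326 genes, as a description. Pim1 was followed most closely by Arhgef12 (r = 0.98, Spearman 0.95), Lrrcc1 (0.97 and 0.98) and Map4 (0.96 and 0.88). Pim2 was most like Nfyc (r = 0.96, Spearman 0.95), Ebi3 (0.93 and 0.83) and Pigr (0.92 and 0.90). Socs1 was most like Ptov1 (r = 0.94, Spearman 0.71), Trim11 (0.93 and 0.86) and Frrs1 (0.92 and 0.50). Cish was most like Fbxw13 (r = 0.96, Spearman 0.98), Nfix (0.94 and 0.86) and Il17rb (0.94 and 0.86). Being the highest of so many, these values carry no test, and all genes share the same libraries and depth.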

How the data were processed

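Per the labels' protocols, the RNA came from RNeasy columns and SMART-seq amplification preceded SMARTER library preparation. The submitters' processing notes name Trimmomatic, STAR, featureCounts and GRCm39, without versions, annotation or strand setting. The deposited table holds unscaled read counts for each gene and library. Its columns were matched to samples through the codes in the sample descriptions, and 3 unnamed value columns were not used.

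The members, gene lists and tests were chosen with earlier results of these data known. Genes were filtered with filterByExpr (11363 remained). After TMM scaling they were tested with edgeR 4.0.16 in R 4.3.3 (robust quasi-likelihood F test, genotype as the only term), with Benjamini-Hochberg adjustment over all genes tested and a threshold of 0.05. The SE was taken from the log2 fold change and F. Log2 CPM used a prior count of 2, and ratios between members used 2 added counts. The text names the 7 members, up to 4 genes with the smallest p per list, and the 3 genes most alike to each member of at least 5 CPM, and 1 gene that this rule would name is not reported here.

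The alternatives tried were DESeq2 1.42.0, limma 3.58.1 (voom with quality weights), scaling by RLE or upper quartiles, dropping the filter, a filter of 5 CPM in 4 libraries, a threshold of 0.1, halved counts, a sex term (from Xist and Y-linked genes), a follicular B-2 score, a replicate block, leaving out each library, and leaving out control 2 and control 4. All exons as the gene length was added after seeing the data. Among counts below 20, 72.7% to 77.3% were even, as when both mates of a pair are counted. The limit of 3 counts equals 0.0854 to 0.111 CPM, depending on the library, and covers counting error only. No pair of libraries in a group was a duplicate (chi-square per degree of freedom 31.3 to 321.3). The series text gives 4 mice per group. Sequences and lengths come from GENCODE M21 (GRCm38) and RefSeq (GRCm38.p6), another build than the authors', and only letters, lengths and promoter positions were used.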

Additional observations from a re-analysis of the deposited data

Results flagged for a closer look

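In 3 of the 14 sets of 4 libraries (7 members in 2 groups), 1 library stood apart from the other 3 by more than Dixon's 95% critical value, where chance flags about 1 set in 20. Pim1 in control 3 was at 30.15 CPM, against 16.3 to 18.1 CPM in the other controls. Pim2 in control 4 was at 99.2 CPM, against 80.6 to 82.5 CPM, and Pim2 in dKO 2 was at 166.4 CPM, against 94.2 to 105.4 CPM. Without control 3 the log2 fold change of Pim1 was 1.93 (adjusted p = 0.0021). For Pim2 it was 0.52 without control 4 and 0.22 without dKO 2 (adjusted p = 0.54 and 0.82).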

How the results depend on the processing

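Pim1 kept its direction in all 19 alternative fits and its call in 16, with log2 fold changes of 1.48 to 1.93. It lost the call without control 4, dKO 3 or dKO 4, so that no member was called there (0), against 1 otherwise and 2 without control 2 and control 4 or with the follicular B-2 score, where Socs2 was added (−1.94 and −1.62). With 1 library left out, log2 fold changes were 1.59 to 1.93 (Pim1), 0.22 to 0.53 (Pim2), −0.64 to −0.31 (Pim3), −0.082 to 0.36 (Socs1), −1.55 to −0.64 (Socs2), −0.78 to 0.32 (Socs3) and −0.14 to 0.49 (Cish). Without control 2 and control 4, Pim3 turned to 0.059, Socs1 to −0.17 and Cish to −0.52. With the follicular B-2 score Socs1 was at −0.060 and Cish at −0.21. Socs3 was at −0.67 in limma voom, −0.48 with a sex term and −0.34 with a replicate block. Of the genes named from the lists, those that turned were Elob (−0.10), Nfkb2 (0.42), Bcl6 (0.93), Fcer2a (0.63) and Cxcr4 (0.36) without control 2 and control 4, and Bcl6 (0.30) and Nfkb2 (0.13) with the follicular B-2 score. Fcer2a is itself among the markers of that score. With 1 library left out Eloc ranged from −0.32 to 0.070. The causes were not tested.

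The number of genes called was 10 of all tested. It was 322 in DESeq2, 282 in limma voom, 40 without a filter, 29 with the follicular B-2 score, 59 without control 2 and control 4, 75 at an adjusted p under 0.1, and 4 to 98 with 1 library left out. Unadjusted, 1229 genes had a p under 0.05. Of the other pathway genes none was called by edgeR, 6 in DESeq2 (Il5ra, Il6st, Stat4, Bcl2, Nfatc1 and Hspa8), 7 in limma voom (Nfkb1 besides), 2 without a filter, 1 with the replicate block or the follicular B-2 score, and 0 to 2 with 1 library left out. No member held an 8-base seed match (0, against 3 members with a 7-base match). The replicate block used the shared replicate numbers, which did not pair the libraries (correlations of same-numbered deviations −0.07 to 0.15), and gave Pim1 a log2 fold change of 1.72 (adjusted p = 0.012). Differences in low members rest on few counts (24 to 212 for Socs3) and could be missed at this depth.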
